A study of Mus musculus with 6 samples.

Results

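The transglutaminases of skin were read from every probe set whose platform gene symbol was Tgm1, Tgm2, Tgm3 or Tgm5. These 4 genes, of 18193 that a probe set names alone, have 10 probe sets: 1 for Tgm1, 6 for Tgm2, 2 for Tgm3 and 1 for Tgm5. Transcripts were measured on 6 oligonucleotide arrays, 1 per mouse, from one region of the back skin, in embryos of which 3 were Get1 +/+ and 3 Get1 -/-. The series title dates them to e18.5 and the sample labels to e18, and neither names strain, sex, litter or the allele. Get1 is the earlier name of Grhl3, a grainyhead-like transcription factor. The labels say that each array is 1 mouse, so p-values measure the spread between these mice. Whole skin holds epidermis, dermis, vessels, follicles and muscle. Fewer cells of a type and less RNA per cell cannot be told apart in it.

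Transglutaminases are calcium-dependent enzymes that join a glutamine of one protein to a lysine of another by an isopeptide bond. In the upper epidermis they weld precursor proteins into the cornified envelope that replaces the plasma membrane of dying keratinocytes. Tgm1 is anchored to the membrane and is the form mutated in lamellar ichthyosis, and it also bonds ceramides to the envelope. Tgm3 is a soluble zymogen of the granular layer and the hair follicle, Tgm5 an epidermal form mutated in acral peeling skin, and Tgm2 the tissue transglutaminase of endothelium, fibroblasts and many other cells. Tgm1 has been described as a target of Get1, and the comparison asks whether its RNA and that of its relatives depend on Get1 in this skin.

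The promoters are shown because grainyhead proteins bind DNA at a known motif, which was looked for near the starts of these genes. They run from 250 bases before to 50 bases after a transcript start in RefSeq on build GRCm38.p6, while the deposited values name no build. The table held 4 starts of 3 members, 2 of them for Tgm1, and the sequences are written 5′ to 3′ on the strand of the gene. Capitals mark any match, on either strand, to AACCGGTT (the grainyhead consensus), AACNNGTT (a looser form that contains it), TATAAA (a core promoter element), TGANTCA (AP-1) or GGGCGG (Sp1).
Tgm1 first start, chr14:55713443-55713742, minus strand: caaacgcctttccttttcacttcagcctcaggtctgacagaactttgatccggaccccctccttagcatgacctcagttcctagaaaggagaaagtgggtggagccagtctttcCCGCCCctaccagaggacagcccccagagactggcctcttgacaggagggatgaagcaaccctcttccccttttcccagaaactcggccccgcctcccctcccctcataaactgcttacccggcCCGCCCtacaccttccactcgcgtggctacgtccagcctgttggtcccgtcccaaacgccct
Tgm1 second start, chr14:55713039-55713338, minus strand: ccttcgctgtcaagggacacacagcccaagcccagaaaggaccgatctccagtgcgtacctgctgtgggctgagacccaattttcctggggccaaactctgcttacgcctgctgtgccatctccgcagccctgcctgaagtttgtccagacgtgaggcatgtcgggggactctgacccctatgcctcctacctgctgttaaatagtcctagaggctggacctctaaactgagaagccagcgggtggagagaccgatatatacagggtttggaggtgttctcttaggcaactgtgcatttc
Tgm3, chr2:130012090-130012389, plus strand: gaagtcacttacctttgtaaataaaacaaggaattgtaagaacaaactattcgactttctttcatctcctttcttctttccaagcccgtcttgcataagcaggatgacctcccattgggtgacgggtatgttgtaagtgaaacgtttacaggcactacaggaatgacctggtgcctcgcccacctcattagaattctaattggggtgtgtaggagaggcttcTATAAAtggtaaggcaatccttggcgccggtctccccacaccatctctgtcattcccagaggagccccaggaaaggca
Tgm5, chr2:121085792-121086091, minus strand: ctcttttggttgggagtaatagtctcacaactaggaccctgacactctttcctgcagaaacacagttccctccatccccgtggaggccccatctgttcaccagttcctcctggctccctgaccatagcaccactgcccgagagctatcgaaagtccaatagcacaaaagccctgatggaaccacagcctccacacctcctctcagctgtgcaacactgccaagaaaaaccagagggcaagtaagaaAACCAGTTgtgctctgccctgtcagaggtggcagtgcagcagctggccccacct

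The grainyhead consensus AACCGGTT was in 0 of these 4 windows, and in 0.146% of the 32851 promoters of the same length. The looser AACNNGTT matched once, as AACCAGTT over the Tgm5 start from base -4 to base 4 (base 1 is the first transcribed base, and there is no base 0). It is in 4.2% of all promoters. The first Tgm1 start had 2 Sp1 matches on the opposite strand, from base -136 to -131 and from base -12 to -7, a motif in 35.7% of promoters. Tgm3 had the core promoter element from base -28 to -23, against 13.6% of promoters. The AP-1 motif, in 7.81% of promoters, was in none of the 4 windows, and the second Tgm1 start held no match to any motif. These counts describe letters in a short window. They say nothing of sites farther away or of binding.

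Values are MAS5 signals in arbitrary units, scaled by the authors to a common mean on each array, and group values are means ± SD (n = 3). Signals of different probe sets are not comparable with each other. With 6 arrays in all, precision is limited throughout. Of the 10 transglutaminase probe sets 9 passed the filter, a mean signal of 137 over the 6 arrays. The sixth Tgm2 probe set (1438942_x_at) did not, with signals between 7.30 and 58.3. Each gene is represented by its brightest probe set. Correlations between arrays ran from 0.916 to 0.971. The only Grhl3 probe set read 694 ± 229 in Get1 +/+ and 346 ± 88.5 in Get1 -/- skin, a difference that did not pass (adjusted p = 0.737, limma). The labels do not say which part of the gene is deleted, so a probe set outside it checks nothing.

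Of the 4 genes, Tgm1 was the one whose genotypes did not overlap. None of the 9 probe sets passed an adjusted p of 0.05 in limma, where 6 of 22519 kept probe sets did (0.0266%). At an unadjusted p under 0.05 there was 1 of 9, that of Tgm1, against 6.72% of all kept probe sets. With the replicate number as a block there were 2 of 9, the other being a Tgm2 probe set (1455900_x_at), against 10.2% of all. After adjustment 0 of 9 passed with the block, against 0.155% of all. All Get1 -/- values lay below all Get1 +/+ values in 1 of 9, against 6.51% of all. In 0 of 9 did they all lie above, against 4.63%. Each of the members' shares rests on at most 2 of 9 probe sets, so it is imprecise, and none was tested against its background. Among the 9 probe sets 3 had a negative and 6 a positive log2 change, and 5 of the 6 positive ones belong to Tgm2.

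**Figure D1:**
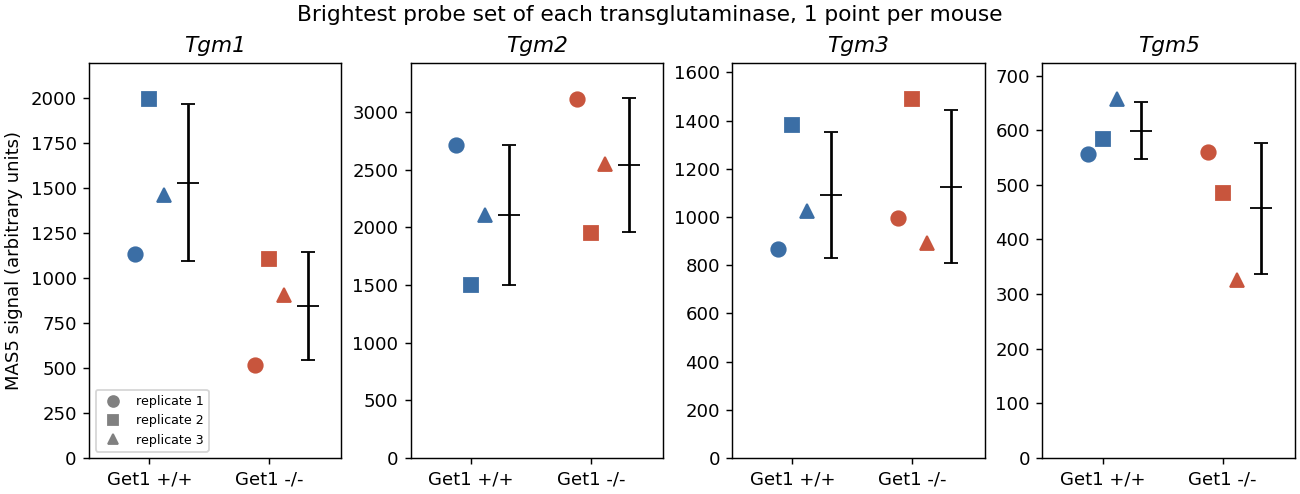
MAS5 signal (arbitrary units, axis from 0) of the brightest probe set of each transglutaminase in 3 Get1 +/+ and 3 Get1 -/- mice; marker shapes give the replicate number and black bars the mean ± SD. Tgm1 lies between 1131 and 1995 in Get1 +/+ and between 515 and 1104 in Get1 -/- skin, and the genotypes of the other 3 genes overlap.

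Tgm1, the membrane-anchored enzyme of the envelope, read 1131, 1995 and 1460 in Get1 +/+ replicates 1, 2 and 3. In Get1 -/- replicates 1, 2 and 3 it read 515, 1104 and 907. The lowest Get1 +/+ array and the highest Get1 -/- array are close to each other, so the groups are separated by a narrow gap. The group values were 1528 ± 436 and 842 ± 300, a signal 1.85-fold lower in Get1 -/- skin. The log2 change was -0.89 ± 0.31 (SE), with a 95% interval from -1.59 to -0.19 and an adjusted p of 0.737 over all kept probe sets (limma). Only 1.11% of kept probe sets had a change this negative, and its unadjusted p of 0.018 ranked 479 of 22519. With the replicate number as a block the adjusted p was 0.125.

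The size of the Tgm1 difference moved with single arrays. Because its genotypes did not overlap, no subset or pairing of these arrays could have turned its sign. Without Get1 -/- replicate 1, its lowest array, the log2 change was -0.57, and without Get1 -/- replicate 2 it was -1.12. Get1 -/- skin was lower in all 3 pairs of mice with the same replicate number, by -1.13, -0.85 and -0.69 on the log2 scale. The beta-actin control also divides the arrays, with a signal of 18407 to 19858 on 3 arrays and 10118 to 13060 on the others. Tgm1 differed by -1.54 within the former, where Get1 -/- replicate 1 is the only Get1 -/- array, and by -0.54 within the latter, where Get1 +/+ replicate 3 is the only Get1 +/+ array.

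Tgm1 ordered the 6 arrays exactly as Grhl3 did. In both genes Get1 +/+ replicate 2 was highest, followed by Get1 +/+ replicates 3 and 1 and then Get1 -/- replicates 2, 3 and 1. This order was shared by 193 of 22519 kept probe sets (0.857%). Such an order by itself places all Get1 -/- values below all Get1 +/+ values, which 1467 kept probe sets showed. The order of Tgm1 and Grhl3 holds within each genotype as well as between them. None of the other 8 kept transglutaminase probe sets had that order. The summed signals of 8 marker genes of the granular layer (Tgm3 among them) did have it, and those of basal and suprabasal markers did not. The order is therefore not particular to Tgm1 and Grhl3.

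Tgm2, the tissue form, was slightly higher in Get1 -/- skin on every kept probe set, and none of them passed. Its brightest probe set (1433428_x_at) read 2716, 1502 and 2108 in Get1 +/+ replicates 1 to 3 and 3114, 1953 and 2550 in Get1 -/- replicates 1 to 3. The genotypes overlapped, and replicate 2 was the lowest array in each of them. Within pairs of the same replicate number Get1 -/- skin was higher in all 3, by 0.20, 0.38 and 0.27 on the log2 scale. The group values were 2108 ± 607 and 2539 ± 581, a log2 change of 0.28 ± 0.25 (SE), with a 95% interval from -0.28 to 0.84 and an adjusted p of 0.842 (limma). Over the 5 kept probe sets the log2 change ran from 0.19 (1426004_a_at) to 0.40 (1455900_x_at). The largest came from 1314 ± 358 in Get1 +/+ and 1709 ± 317 in Get1 -/- skin.

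The Tgm2 probe sets gave similar, not identical, patterns over the mice. Pairwise correlations of their log2 signals over the 6 arrays ran from 0.843 to 0.972, a description of probe sets that share their samples and one transcript. In each of the 5, Get1 +/+ replicate 1 was the highest and replicate 2 the lowest array of its genotype, and replicate 2 was also the lowest Get1 -/- array. The highest Get1 -/- array was replicate 3 in 1417500_a_at and replicate 1 in the other 4. The pair of replicate 1 differed by -0.09 in 1417500_a_at and -0.02 in 1426004_a_at, and by 0.20 to 0.39 in the other 3. Probe sets whose identifier ends in x_at can share probes with other sequences, and 3 of the 5 kept Tgm2 probe sets are of this kind. The others gave log2 changes of 0.19 and 0.23. Without Get1 +/+ replicate 2 the change of the brightest probe set was 0.06.

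Tgm3, the soluble enzyme of granular layer and follicle, gave no direction. Its brighter probe set (1440150_at) read 867, 1380 and 1025 in Get1 +/+ and 997, 1490 and 893 in Get1 -/- replicates 1 to 3. The genotypes overlapped throughout, and replicate 2 was the highest array in both. The group values were 1091 ± 263 and 1126 ± 319, a log2 change of 0.04 ± 0.25 (SE) with a 95% interval from -0.52 to 0.59 (adjusted p = 0.986, limma). The second probe set (1421355_at) read 808, 1372 and 1079 in Get1 +/+ and 675, 1245 and 709 in Get1 -/- skin. Its log2 change was -0.34 ± 0.28 (SE), and all 3 pairs of the same replicate number were lower. The probe sets correlated at 0.848 over the 6 arrays, yet their changes differ in sign. The second read below the first on every Get1 -/- array, and on either side of it in Get1 +/+ mice. Both are read on the same arrays, so the interval of one cannot show whether they agree. Their difference was not tested.

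Tgm5, the form lost in acral peeling skin, read 557, 583 and 657 in Get1 +/+ replicates 1 to 3. It read 560, 485 and 326 in Get1 -/- replicates 1 to 3. Get1 -/- replicate 1 fell inside the range of Get1 +/+ and the others below it, so the groups overlapped. The group values were 599 ± 51.9 and 457 ± 119, with a tighter spread in Get1 +/+ mice than for the other 3 genes. The log2 change was -0.42 ± 0.23 (SE), with a 95% interval from -0.94 to 0.10 and an adjusted p of 0.747 (limma). Get1 -/- replicate 3 carried much of it. Without that array the change was -0.20. Within the arrays of higher beta-actin control signal Tgm5 differed by -0.025 and within the others by -0.72.

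**Figure D2:**
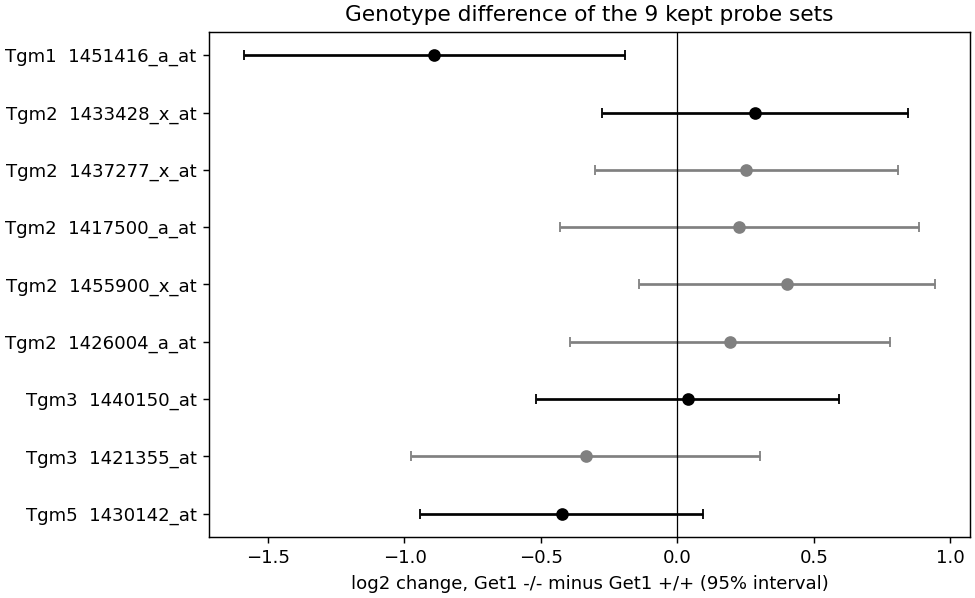
Log2 change in signal (Get1 -/- minus Get1 +/+) of the 9 kept transglutaminase probe sets with 95% intervals of the limma fit; black marks the brightest probe set of a gene and grey the others. The interval of Tgm1 runs from -1.59 to -0.19 and those of the other probe sets include 0; none passed after adjustment over all kept probe sets.

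Whether the 4 genes changed unequally was tested on differences of log2 signal within each array, in an exact two-sided permutation test over the mice. The test covered 6 pairs of genes, and with 3 mice against 3 its smallest possible p is 0.1. The log2 change of Tgm1 minus that of Tgm3 was -0.93, with no overlap of genotypes (exact p = 0.1, adjusted p = 0.3 over the pairs). Against the other Tgm3 probe set the difference was -0.56, again with no overlap (exact p = 0.1). In Get1 +/+ mice the difference between Tgm1 and the brighter Tgm3 probe set varied little (SD 0.08), and in Get1 -/- mice it varied more (SD 0.49). The difference of Tgm1 from Tgm2 was -1.18 (exact p = 0.2) and from Tgm5 -0.47 (exact p = 0.6), and both overlapped. Tgm2 differed from Tgm5 by 0.71 (exact p = 0.2) and from Tgm3 by 0.25 (exact p = 0.7). Tgm3 differed from Tgm5 by 0.46 (exact p = 0.2). This unpaired test cannot pass 0.05 with 3 mice against 3. It also leaves out any pairing of mice by replicate number. Within those pairs Tgm1 minus Tgm2 was -1.33, -1.23 and -0.96, and Tgm1 minus Tgm3 was -1.34, -0.96 and -0.49, negative in each. For Tgm1 minus Tgm3 the lack of overlap fixed that sign in advance. Tgm2 minus Tgm5 was 0.19, 0.65 and 1.29, and Tgm3 minus Tgm5 0.19, 0.38 and 0.81, positive in each. The other 2 differences had mixed signs, from -1.14 to 0.32 for Tgm1 minus Tgm5 and from -0.0041 to 0.47 for Tgm2 minus Tgm3.

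The 4 genes also varied among mice of one genotype. Tgm1 and Tgm3 were highest in replicate 2 of either genotype, where Tgm2 was lowest, and Tgm5 followed neither pattern. Some sums of marker genes of the tissue's layers had such a pattern and others did not. In every such sum the brightest markers weigh most. Summed signals of 8 granular markers (Tgm3 among them) were 90533, 110114 and 93914 in Get1 +/+ and 46479, 89003 and 82107 in Get1 -/- replicates 1 to 3, highest in replicate 2 like Tgm1. Those of 10 skeletal muscle markers were 151758, 100582 and 133729 in Get1 +/+ and 162569, 116794 and 169835 in Get1 -/- skin, lowest in replicate 2 like Tgm2. Endothelial markers, from cells rich in Tgm2, were also lowest there, at 9032 and 9517, but varied less. The sums of 11 macrophage markers were lowest in replicate 2 as well. They were 19571, 16776 and 19114 in Get1 +/+ and 24718, 22189 and 24370 in Get1 -/- skin. Suprabasal markers were highest in replicate 2 of Get1 +/+ and in replicate 3 of Get1 -/- skin. Basal markers were highest in replicates 3 and 1 and fibroblast markers in replicates 1 and 3 of these genotypes. Their part in these patterns was not tested.

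**Figure D3:**
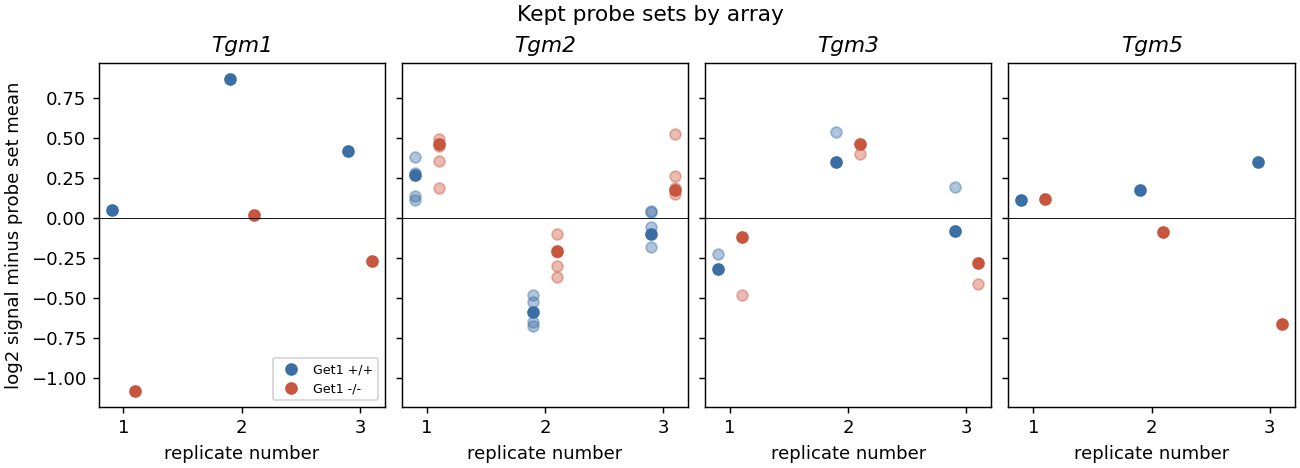
Log2 signal of each kept transglutaminase probe set minus its own mean over the 6 arrays, by replicate number and genotype; solid points are the brightest probe set of a gene and pale points the others. Replicate 2 is highest in both genotypes for Tgm1 and Tgm3 and lowest in both for Tgm2.

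Between genotypes, the markers of differentiated keratinocytes were lower along with Tgm1. Of 9 suprabasal markers 9 were lower (median log2 change -0.35), of 8 granular markers 7 (-0.51) and of 9 basal markers 8 (-0.12), where the median of all 11387 genes was 0.0076. The granular marker that was not lower was Tgm3 itself, by its brighter probe set. None of the markers in these lists passed the threshold, where 0.0351% of all genes did. The summed suprabasal signal, in which the brightest markers weigh most, lay between 160000 and 171700 in Get1 +/+ skin. In Get1 -/- skin it lay between 124500 and 148800, with no overlap. That of granular markers did not overlap either, from 90530 to 110100 against 46480 to 89000. Basal markers overlapped, from 63030 to 76220 against 62490 to 64940. The defining keratins Krt5, Krt14, Krt1 and Krt10 were bright on all arrays, with changes between -0.10 and -0.12. Other markers differed more. Of the 9 suprabasal markers 4 lay lower with no overlap, against 6.78% of all genes. They were Lypd3 (-0.70), Sbsn (-0.49), Krtdap (-0.45) and Dmkn (-0.32), named after their values were seen. Set against the mean log2 signal of the 18 basal and suprabasal markers on the same array, Tgm1 differed by -0.65 with no overlap (exact permutation p = 0.1, the smallest possible). This reference was chosen after the data were seen and holds no granular marker. The reference itself was lower in Get1 -/- skin by -0.24, also with no overlap (exact permutation p = 0.1). On the same footing Tgm5 differed by -0.18, Tgm3 by 0.28 and Tgm2 by 0.53, all with overlap. The part of the markers in the Tgm1 value was not tested.

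Markers of the hair follicle's inner root sheath, where Tgm3 crosslinks trichohyalin, varied widely. Of 9 measured 8 were lower, all but Tgm3 itself, with a median of -0.93. The sums of the 9 ran from 9242 to 38200 in Get1 +/+ and from 7303 to 13310 in Get1 -/- skin. Of 12 endothelial markers 10 were higher (median 0.11), with sums from 9032 to 9876 against 9517 to 11860. Of 9 fibroblast markers 5 were higher (0.04), with sums from 144500 to 183000 against 157100 to 178900, and of 10 muscle markers 10 were higher (0.34), with sums from 100600 to 151800 against 116800 to 169800. The lists overlapped between genotypes in these sums, and no marker in them passed. Their part in the Tgm2 values was not tested, nor was that of macrophage markers, given below, whose sums did not overlap between genotypes.

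Other members of the transglutaminase family were mostly dim. F13a1, the plasma transglutaminase factor XIII subunit that tissue macrophages also make, was the 1 gene of this list of 6 to pass the filter. It read 5253, 4512 and 3462 in Get1 +/+ and 6038, 5395 and 6474 in Get1 -/- replicates 1 to 3. All Get1 -/- values lay above, with a log2 change of 0.45 ± 0.17 (SE) and an adjusted p of 0.737 (limma). Of 11 macrophage markers, F13a1 among them, 9 were higher (median 0.42), with summed signals from 16780 to 19570 in Get1 +/+ and from 22190 to 24720 in Get1 -/- skin. The part of macrophage RNA in the F13a1 value was not tested. Tgm4, a prostate enzyme, read 31.6 to 56.8 and 3.39 to 51.0, and Tgm6, a form known from the nervous system, 57.6 to 77.4 and 30.0 to 46.2 in Get1 +/+ and Get1 -/- skin. F13b, the carrier subunit of factor XIII, read 2.36 to 12.6 and 9.33 to 24.7. Epb42, a red cell protein without enzyme activity, read 10.8 to 34.0 and 12.1 to 22.7. These 4 genes lay under the filter on low signals. Tgm7 was not analysed here.

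Most genes of the proteins that transglutaminases crosslink were lower in Get1 -/- skin, while those past the threshold were higher. Of 43 listed genes on the array 35 were measured, 29 of them lower and 6 higher, with a median log2 change of -0.49, where 48.7% of all genes were lower. Past the threshold 2 rose and 0 fell, against 0.0351% of genes called in all. Sprr2d, a small proline-rich precursor, read 916, 529 and 797 in Get1 +/+ and 5131, 5972 and 4603 in Get1 -/- replicates 1 to 3 (adjusted p = 0.00413, limma). Rptn, the precursor repetin, read 140, 211 and 78.1 and then 2773, 6444 and 2675 (adjusted p = 0.00885, limma). Lce1m, a late envelope precursor, read 8384 ± 2773 in Get1 +/+ and 2357 ± 1257 in Get1 -/- skin with no overlap, a log2 change of -1.98 (adjusted p = 0.538, limma). With the replicate block its adjusted p was 0.0346 (limma), so that 2 higher and 1 lower gene passed, against 0.193% of all genes. Lce3f, named after its values were seen, lay under the filter, with 11.7 to 31.5 in Get1 +/+ and 391 to 836 in Get1 -/- skin. Its log2 change was 5.09, and its adjusted p without the filter was 0.0121 (limma). Lce3c had a log2 change of 2.20 and the plakin Ppl, a scaffold of the early envelope, one of -0.86, and neither passed. Many Lce1 and Sprr genes are near-identical copies whose probe sets may share signal. Within the arrays of lower beta-actin control signal the median of the list was -0.078, and within the others -0.93. Without Get1 -/- replicate 1 it was -0.20.

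Genes listed for ichthyosis or for attachment of the lipid envelope, in which Tgm1 bonds ceramides to protein, were lower together with Tgm1. Of 16 measured genes 16 were lower, with a median log2 change of -0.66, where 48.7% of all genes were lower. The change nearest to 0 was that of Abhd5 (-0.015), named after its value was seen. Past the threshold were 0, against 0.0351% of all genes. The median was -0.42 without Get1 -/- replicate 1 and -1.22 within the arrays of higher beta-actin control signal. Elovl1, an elongase of very long chain fatty acids, read 9534, 12913 and 10707 in Get1 +/+ and 5764, 6962 and 7383 in Get1 -/- replicates 1 to 3, a log2 change of -0.72 ± 0.15 (SE, adjusted p = 0.473, limma). Cyp4f39, which hydroxylates those fatty acids, differed by -0.69, the ichthyosis gene Nipal4 by -0.76 and the cholesterol sulfotransferase Sult2b1 by -0.96. These 4 genes were taken for the smallest p in the list. In them and in the lipoxygenase Alox12b, 5 of 16 genes, all Get1 -/- values lay below all Get1 +/+ values, against 6.78% of all genes.

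Genes that process the enzymes or supply their calcium differed little. Of 10 measured 8 were lower and 2 higher, with a median log2 change of -0.09. Past the threshold were 0, against 0.0351% of all genes. Free of overlap were 0, where all Get1 -/- values lay below in 6.78% of all genes. The calmodulin-like Calml3 differed by -0.50, the calcium pump Atp2a2 by -0.21, the protease legumain (Lgmn) by 0.21 and the calpain Capn2 by 0.13. Cathepsin L (Ctsl), which activates Tgm3, differed by -0.13 and cathepsin D (Ctsd), linked to Tgm1 processing, by -0.15, both named here after their values were seen. Partners of Tgm2 outside the cell gave a median of 0.05 over 9 genes, with 7 higher and 2 lower. Here too 0 were past the threshold, against 0.0351% of all genes. The adhesion receptor Adgrg1 differed by -0.53, the integrin Itgb3 by 0.54, the proteoglycan Sdc4 by 0.66 and the receptor Pdgfrb by 0.22. Fibronectin (Fn1), a main matrix partner of Tgm2 named after its value was seen, differed by -0.04.

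**Figure D4:**
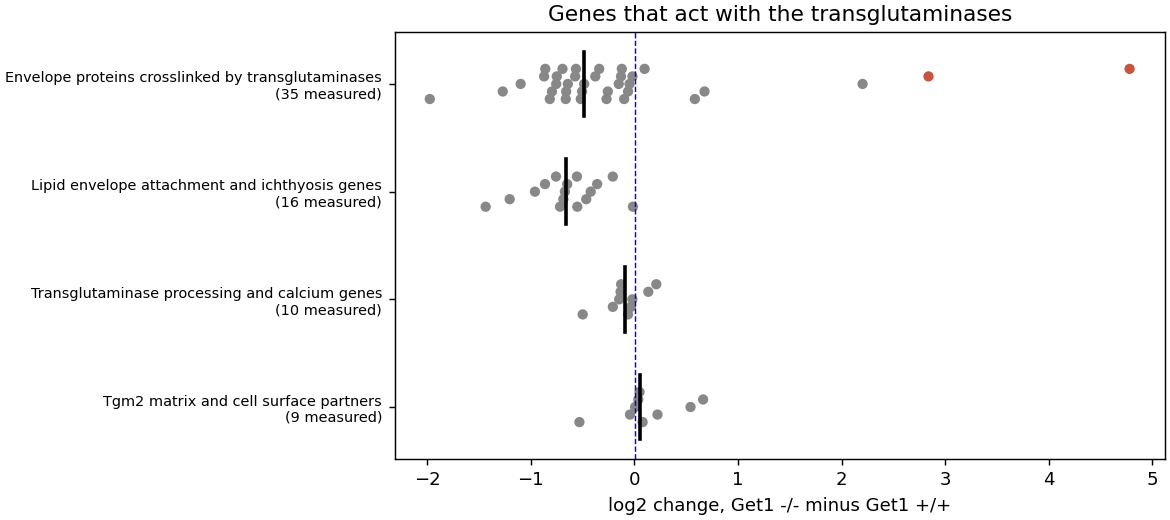
Log2 change (Get1 -/- minus Get1 +/+) of each measured gene in 4 lists of genes that act with the transglutaminases; black bars are list medians, the dashed line the median of all genes (0.0076) and red points genes past the threshold. All 16 genes of the list for lipid envelope attachment and ichthyosis lie below 0, and the 2 red points are Sprr2d and Rptn.

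Genes most like each transglutaminase were ranked by Pearson correlation of log2 signal over the 6 arrays among 11386 genes. Here a gene entered by whichever of its kept probe sets correlated highest, not by its brightest, which raises the values and the counts. Over so few arrays high values are frequent, and they are given as a description. Nearest to Tgm1 were Tars2 (0.998), Plcxd1 (0.996), and Fgfr2, Prkx and Sdr42e1 (0.995 each). Sdr42e1 and Fgfr2, a receptor of epithelial growth factors, had log2 changes of -1.19 and -0.62. Nearest to Tgm2 were Adcy2 (0.999), Zfp618 (0.997), Adssl1 (0.994), Senp7 (0.991) and Col27a1 (0.99). Nearest to Tgm3 were Cutc (0.995), Ywhae and Prorsd1 (0.993 each), Cnbp (0.987) and Tlk2 (0.986). Nearest to Tgm5 were Adgrg1 (0.997, by a probe set other than the one above), Ccdc86 (0.995), 1700037H04Rik (0.987), Ulk3 (0.981) and Bicral (0.98). Correlations above 0.95 were reached by 292 genes for Tgm1, 89 for Tgm2, 49 for Tgm3 and 20 for Tgm5. More genes reached that value for Tgm1 than for the other 3.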

How the data were processed

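Per the labels, total RNA was turned into biotin-labelled cRNA and hybridised to 1 array per mouse. The deposited intensities are linear MAS5 signals (tool per the submitters' processing notes, version and genome build not given in the sources used here). The 2% trimmed mean was 500 on every array, so they were used as deposited, in log2. After 64 control probe sets were left out, 22519 of 45037 with a mean log2 signal at or above the median were kept. The genotype comparison used limma 3.58.1 (R 4.3.3, eBayes with trend, two-sided, Benjamini-Hochberg over kept probe sets, threshold 0.05), tested on simulated data. Gene names are those of the platform annotation, and 1 symbol was listed for 34945 probe sets. A list gene is represented by its brightest kept probe set, and lists were described by counts and medians without a list test.

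Genes named are all transglutaminases, Grhl3, list members past the threshold or with up to 4 smallest p, and the 5 genes most correlated with each member. Members and lists were chosen with earlier results of these data known. Deviations of mice with the same replicate number correlated weakly over kept probe sets (0.133, 0.26 and 0.14), and the labels name no shared litter or batch. Mice with different numbers are not set beside these values, so they do not show that the numbers pair the mice. The unpaired fit stays the main one. Alternatives covered normalization, filter, offset, variance model, weights, block, single arrays, the summary of a gene's probe sets and the beta-actin control.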

Additional observations from a re-analysis of the deposited data

How the results depend on the processing

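The sign of the Tgm1 change (negative), of the Tgm2 change (positive) and of the Tgm5 change (negative) was kept in all 19 alternatives of each, and no transglutaminase passed the threshold in any fit. For Tgm1 the alternatives on fewer arrays could not have turned the sign, since its genotypes did not overlap. The adjusted p of Tgm1 ran from 0.125 to 0.997 over its fits. Tgm3 turned negative with array weights (-0.14) and with the mean of its kept probe sets (-0.15), and leaving out single arrays gave -0.18 to 0.22. The mean includes its other probe set, whose log2 change is negative. Within the arrays of higher beta-actin control signal Tgm3 differed by -0.13, Tgm1 by -1.54 and Tgm5 by -0.025, and within the others Tgm5 differed by -0.72. In the former Tgm1 differed from Tgm2 by -2.17, from Tgm3 by -1.41 and from Tgm5 by -1.52, and Tgm3 from Tgm5 by -0.11, or 0.89 within the latter, where Tgm1 minus Tgm5 (0.18) and Tgm2 minus Tgm3 (-0.087) turned sign. Leaving out single arrays, Tgm2 minus Tgm3 ran from -0.16 to 0.64 and Tgm1 minus Tgm5 from -0.78 to 0.016. The former turned sign without Get1 +/+ replicate 2 and the latter without Get1 -/- replicate 1. The cause of these shifts was not tested. The count of 6 probe sets past the threshold became 13 with median centring, 35 with the replicate block and 4 to 26 without single arrays, the highest without Get1 +/+ replicate 1. With the block, 0 of the transglutaminases passed. Signals near the filter lie where silent genes can read, which limits the dim Tgm2 probe set and the other family genes.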
